A study of Mus musculus with 2 samples.

Results

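Macrophages of the mouse parotid gland were picked out of the droplet libraries of a control gland and an irradiated (IR) gland by the RNA they carried. A cell was counted as a macrophage when it held at least 3 UMIs (unique molecular identifiers, the tags by which RNA molecules are told apart) of C1qa, C1qb, C1qc, Csf1r and Adgre1 together, no UMI of Cd3d, Cd3e or Cd3g, and fewer than 3 UMIs of Cd79a, Cd79b and Ms4a1. By this rule 175 of 8664 cells were macrophages, 107 of 3378 in the control library and 68 of 5286 in the IR library. Because these genes chose the cells, their levels below are a description and support nothing.

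The mice were wild-type females of the C3H strain. IR animals were 6 to 10 weeks old when the head and neck received 6 Gy a day on 5 days, 30 Gy in total, and the glands were taken 10 months later, while control animals were not irradiated. Parotid glands of 2 mice were dissociated and pooled for each condition, so every condition had 1 library, no test between conditions could be run, and differences between the libraries cannot be told apart from differences between the animals. Barcodes counted as cells when they had 200 genes or more and no more than 5% mitochondrial UMIs, and 12 barcode sequences occurred in both libraries, none of them in macrophages of both. Intervals given with values are at 95% and cover counting error only.

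Macrophages are phagocytes that live in nearly every organ, where they clear dying cells and debris, present peptides on MHC class II molecules and release chemokines and cytokines. Most depend on the receptor encoded by Csf1r, and Adgre1 encodes F4/80, a surface protein long used to recognise them in the mouse. The 3 chains of C1q, the molecule that starts the classical complement pathway, are encoded by C1qa, C1qb and C1qc, and tissue macrophages are a main source of them. Resident macrophages are often divided into a perivascular kind, marked by Mrc1, Folr2, Lyve1 and Timd4, and a kind marked by Cx3cr1 and high MHC class II.

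The C1q genes, which supplied most of the RNA that the rule used, lie side by side on the minus strand of chromosome 4 (GRCm38, GENCODE M21): C1qb at chr4:136880129-136886187, C1qc at chr4:136889804-136893065 and C1qa at chr4:136895917-136898803. Adgre1 lies on the plus strand at chr17:57358691-57483527. The sequences just upstream of C1qb and C1qc are shown because these neighbouring genes were seen together in the same cells. They are taken from RefSeq (GRCm38.p6), read 5′ to 3′ on the gene's strand, and span chr4:136886201-136886450 for C1qb and chr4:136893066-136893164 for C1qc. Capitals mark ACTTCCT, the reverse complement of AGGAAGT, a word that holds the GGAA core bound by ETS factors, among them the macrophage regulator PU.1.
C1qb: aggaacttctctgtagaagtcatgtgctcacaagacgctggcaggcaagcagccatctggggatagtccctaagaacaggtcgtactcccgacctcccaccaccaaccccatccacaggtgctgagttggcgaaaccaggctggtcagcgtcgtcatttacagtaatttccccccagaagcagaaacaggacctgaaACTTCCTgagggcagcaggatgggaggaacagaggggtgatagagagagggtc
C1qc: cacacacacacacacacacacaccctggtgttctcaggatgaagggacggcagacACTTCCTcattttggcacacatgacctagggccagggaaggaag
The word AGGAAGT, searched on both strands, was found in 2525 of 32851 RefSeq windows of 250 upstream bases (7.69%). It was found in 53 of the 419 windows (12.6%) of genes at least 2 times higher in macrophages than in the other cells of both libraries, and in 157 of 1892 windows (8.30%) of the other genes counted in macrophages. A match is a description of the letters and does not show that a factor binds there.

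Each of the C1q genes was seen in most macrophages of both libraries. C1qa, chain A of C1q, had 1319 UMIs in 103 of 107 control macrophages and 925 UMIs in 65 of 68 IR macrophages. C1qb had 870 and 660 UMIs, and C1qc 605 and 416. All 3 genes were detected together in 84 control and 53 IR macrophages. Csf1r had 131 UMIs in 41 control macrophages and 55 in 25 IR macrophages, and Adgre1 had 38 UMIs in 22 and 28 UMIs in 15. A UMI of Csf1r or Adgre1 was present in 47 control and 33 IR macrophages. Only 2 control macrophages, and no IR macrophage, had no C1q UMI at all.

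C1q RNA was also detected in a few cells of other classes. C1qa had 94 UMIs in 15 of the 1147 control T cells (1.31%) and 78 UMIs in 29 of the 2754 IR T cells (1.05%), which had median depths of 3281 and 2581.5 UMIs. In macrophages it was detected in 96.3% and 95.6% at median depths of 866 and 2313.5 UMIs, and in 92.5% and 79.4% after each cell was thinned to 500 UMIs, against 0.523% and 0.363% of T cells. C1qa, C1qb and C1qc made up 47.2%, 31.1% and 21.7% of the C1q UMIs of control macrophages and 46.2%, 33.0% and 20.8% of those of IR macrophages. In T cells the split was 45.6%, 32.5% and 21.8% in control cells and 47.6%, 34.1% and 18.3% in the IR library. On the plot of the rule genes by cell class, macrophages stand above the 4 other classes for each of the 5 genes.

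**Figure D1:**
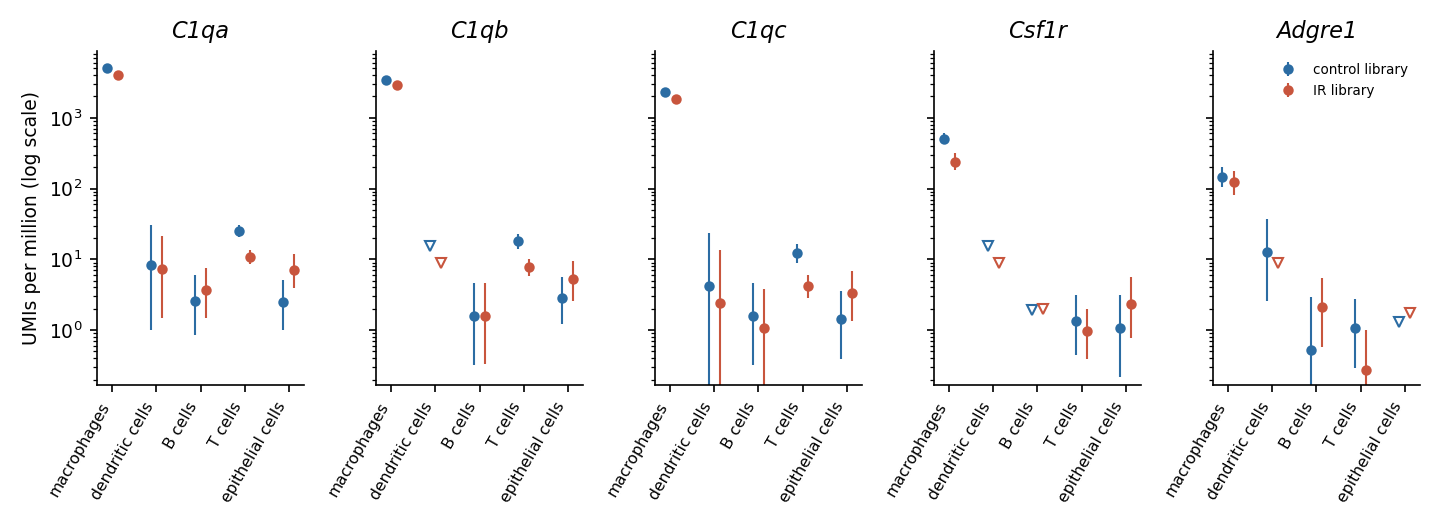
CPM (UMIs per 1000000 outside abundant and mitochondrial genes) of the 5 genes of the rule (log axis) in macrophages, dendritic cells, B cells, T cells and epithelial cells of the control and IR libraries. Bars are 95% Poisson intervals of the summed UMIs and open triangles mark the upper limit where no UMI was seen. C1qa stands at 5124 in control and 4056 in IR macrophages, against 25.3 and 10.8 in T cells.

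Cells close to the limit of the rule were few. At exactly 3 UMIs of the rule genes there were 6 control and 10 IR macrophages, with median depths of 563.5 and 2380 UMIs. Just outside it, 11 control and 7 IR cells had exactly 2 such UMIs and met the T-cell and B-cell limits, with median depths of 1635 and 10165 UMIs. The conditions on the Cd3 genes left out 12 control and 16 IR cells that reached 3 UMIs, and the condition on Cd79a, Cd79b and Ms4a1 left out 3 and 7. The median macrophage had 12 UMIs of the rule genes in control and 16 in IR cells.

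Macrophages were a smaller share of the cells in the IR gland. They made up 3.17% of the kept control cells (107 of 3378, Clopper-Pearson interval 2.60% to 3.81%) and 1.29% of the kept IR cells (68 of 5286, 1.0% to 1.63%). The IR share was 0.406 times the control share (0.295 to 0.556). Among macrophages, T cells, B cells and dendritic cells only, they were 107 of 2069 control cells and 68 of 3664 IR cells, a ratio of 0.359 (0.261 to 0.491). There were 1147 control and 2754 IR T cells, and the share of macrophages moves with that of every other class. Among the barcodes that failed the filter, 20 of 2172 control barcodes (0.921%) and 40 of 2507 IR barcodes (1.60%) met the rule, a ratio of 1.73 whose interval of 0.989 to 3.13 includes 1.

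The macrophages of a library were not alike in depth or in the kind of RNA they held. They ranged from 502 to 88204 UMIs in the control and from 505 to 77795 in the IR library, and a list of abundant secretory genes took 39.2% and 39.6% of their UMIs. Malat1, a long noncoding RNA kept in the nucleus, divided them. With cells that carried epithelial RNA set aside, no macrophage had more than 3 and fewer than 20 Malat1 UMIs. This division and the ones that follow were chosen after the values were seen and carry no test. Macrophages with at least 10 Malat1 UMIs, called Malat1-rich here, were 34 control cells of 3734.5 UMIs at the median and 33 IR cells of 3324. Those with fewer, called Malat1-poor, numbered 66 and 27, with medians of 650 and 559 UMIs. A last set of 7 control and 8 IR macrophages held at least 3 UMIs of the epithelial genes Krt8, Krt18 and Epcam. It had median depths of 15077 and 24916 UMIs, but medians of only 9 and 3.5 UMIs of the rule genes, and 6 of the 8 IR cells held 3 to 5. The label macrophage therefore rests on few UMIs in most of these IR cells. The set supplied 31.3% and 40.7% of the macrophage UMIs outside the abundant genes. Some deep macrophages outside the set, which were kept throughout, also had few UMIs of the rule genes. The deepest such control cell had 3 in 13806 UMIs, another had 4 in 8809, and the deepest such IR cell had 8 in 10726.

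**Figure D2:**
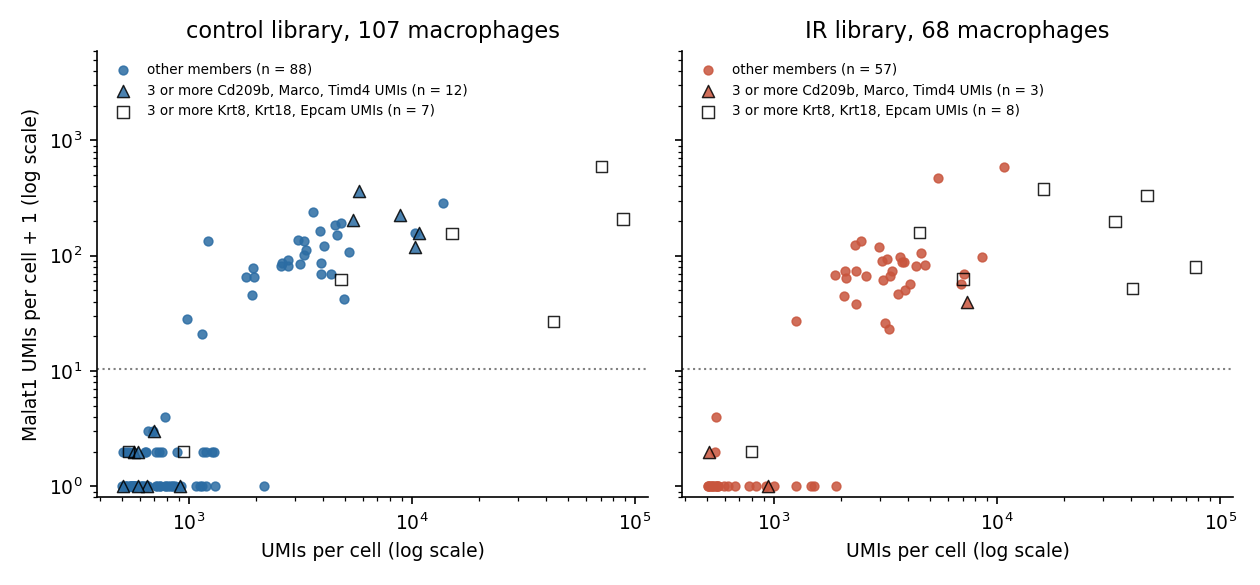
Total UMIs of each macrophage against its Malat1 UMIs plus 1, both on log axes, for the control (107 cells) and IR (68 cells) libraries. The dotted line marks 10 Malat1 UMIs, and symbols set apart macrophages with epithelial RNA and those of the Cd209b group. In both libraries the cells form a shallow cloud at 0 to 3 Malat1 UMIs and a deeper cloud from 20 upward.

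Of the sets divided by Malat1, the shallow, Malat1-poor macrophages had the lower IR share relative to the control. They were 1.95% of control and 0.511% of IR cells, a ratio of 0.261 (0.161 to 0.415). Malat1-rich macrophages were 1.01% and 0.624%, a ratio of 0.620 whose interval of 0.372 to 1.03 includes 1. Counted only among cells with at least 10 Malat1 UMIs of any kind, the ratio was 0.581 (0.349 to 0.967). At least 10 Malat1 UMIs were held by 99.2% and 97.7% of T cells, by 98.4% and 97.5% of B cells and, with epithelial RNA included, by 36.4% of control (39 of 107) and 58.8% of IR macrophages (40 of 68). The part of depth and of Malat1 content in the lower IR share was not tested.

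Among shallow macrophages, C1qa, a gene of the rule, had 345 UMIs in 64 of the 66 control cells and 152 in 25 of the 27 IR cells. Apoe, which encodes a lipid carrier, had 1402 UMIs in 58 and 556 UMIs in 22 of them, and Cd74, the invariant chain of MHC class II, had 1191 in 60 and 444 in 24. The IR levels were 1.03 times (0.842 to 1.25), 0.924 times (0.836 to 1.02) and 0.868 times (0.777 to 0.969) those of the control for C1qa, Apoe and Cd74. Lyz2, lysozyme, had 111 UMIs in 43 control and 127 in 22 IR cells and was 2.67 times higher (2.05 to 3.47).

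The name macrophage was checked against genes that the rule did not use. For each class the UMIs were added up and scaled to counts per 1000000 UMIs (CPM) of genes outside the abundant list and the mitochondrial genes. Of 2327 genes with at least 25 UMIs in macrophages and a UMI in at least 10% of them, 427 (18.3%) were at least 2 times higher in macrophages than in all other cells in both libraries. Macrophages were grouped on other genes than these, but the genes come from the same cells, so the counts are given as a description. Of the macrophage core list 18 of 20 counted genes were among them, and of the interstitial list 7 of 8. The same held for 16 of 18 lysosome genes, 11 of 12 phagocytic and Fc receptors, 8 of 9 lipid genes, 7 of 8 genes of MHC class II presentation and 5 of 6 of iron handling. Other lists were there in part, with 4 of 5 dendritic cell genes, 7 of 12 heat shock genes and 7 of 16 immediate early genes. No cycling gene of the 3 counted was among them.

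Several of the genes that set macrophages furthest from the other cells encode receptors. C3ar1, the receptor for the complement fragment C3a, had 64 UMIs in control macrophages and 38 in IR macrophages, with 4 and 8 in all other cells, 645 and 284 times higher in CPM. Cx3cr1, the fractalkine receptor, was 267 and 173 times higher, and Trem2, a receptor for lipids and cell debris, 98.8 and 185 times. The high affinity antibody receptor Fcgr1 was 136 and 179 times higher and its relative Fcgr4 68.5 and 93.9 times. Ms4a7, a membrane protein of macrophages, was seen in 58 control and 37 IR macrophages and was 164 and 92.8 times higher. Mrc1, the mannose receptor, was 177 and 79.6 times higher, on 57 control and only 4 IR UMIs. Lilra5, Fcrls, Gdf3, Clec4a2, Cd300c2, Gatm, Il1a and Nlrp3 complete the first 15, with ratios between 65.7 and 413 in the control and between 70.5 and 219 in the IR library.

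Several markers used for macrophages in other tissues were absent or scarce. Vsig4 and Cd5l, known from liver and peritoneal macrophages, had no UMI in either library. Mertk, a receptor for dying cells, had 8 UMIs in the control and none in the IR library, and Lyve1 had 6 and none. Among monocyte genes Chil3 had no UMI and Ly6c2 had 7 and 3. The neutrophil gene S100a8 had none, S100a9 had 1 and none, and no gene of the natural killer list had a UMI. T-cell genes summed to 39 UMIs in the control and 29 in the IR macrophages, led by Il7r, and B-cell and plasma-cell genes to 201 and 63, led by Igkc. The rule itself set the Cd3 genes to 0 and kept Cd79a, Cd79b and Ms4a1 under 3 UMIs a cell.

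RNA of the secretory epithelium was the other large component. Its 14 listed genes took 151014 UMIs in control and 134606 in IR macrophages, 35.7% in both, with Bpifa2 the most abundant. Without the macrophages that held keratin and Epcam RNA it was 8.51% and 6.28%. Every T cell of both libraries also had a UMI of Bpifa2. Endothelial, stromal and myoepithelial genes had 160 and 182 UMIs and, without those cells, 130 and 29. Of these, 83 were Dcn UMIs of a single control macrophage. Red blood cell and mast cell genes had 334 and 110 UMIs, led by the globin Hbb-bs.

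Dendritic cells, like macrophages, present peptides to T cells. H2-Aa, an MHC class II chain, had 1277 UMIs in control macrophages and 1192 in the 44 control dendritic cells, a CPM ratio of 0.991 (0.916 to 1.07). In the IR library it had 1076 UMIs in macrophages and 1484 in 83 dendritic cells, a ratio of 1.31 (1.21 to 1.42). Cd74 had ratios of 1.01 and 1.36. The macrophage sums of this paragraph include the cells with epithelial RNA, which supplied 31.3% and 40.7% of the UMIs used for scaling. Without those cells the 12 presentation genes together rose from 35500 to 50572 CPM in control and from 35037 to 55109 in IR macrophages. The ratios of H2-Aa and Cd74 above are therefore lower than they would be without those cells. Apoe had 4678 and 194 UMIs in the control and 3190 and 534 in the IR library, 22.3 and 10.8 times higher in macrophages. Lyz2 was 15.7 and 15.1 times higher. Ms4a7 had 155 and 115 UMIs in macrophages and none in dendritic cells. In the other direction Irf8, a transcription factor that dendritic cells need, was 3.40 and 6.62 times higher in dendritic cells. Siglech and Flt3 were among the genes that set the dendritic class, so their excess there is fixed by that choice. Siglech, a receptor of plasmacytoid dendritic cells, was 2.11 and 7.90 times higher, and Flt3, the growth factor receptor of dendritic cells, had no UMI in control macrophages and 2 in IR macrophages, against 26 and 50.

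To compare IR with control macrophages, CPM values were set side by side for genes with at least 20 UMIs in both libraries together and at least 1 in each. A gene was counted as higher or lower when the levels differed at least 2 times, and no such count is a test. Over all macrophages 213 of 3172 genes (6.72%) were higher in the IR library and 222 (7%) lower. Most of the 8 highest genes came from the few deep macrophages with epithelial RNA. Krt14, a keratin, had 6 UMIs in control and 81 in IR macrophages, but 1 and 1 without those cells. Cxadr had 4 and 32 UMIs, and then 1 and 1. Ano1, a chloride channel, had 9 and 38, and then 1 and 2. Tm4sf1 had 5 and 38 UMIs, Enc1 3 and 19, and Plscr1 2 and 18, and these became 2 and 3, 0 and 2, and 0 and 7. Tmem123 and Pvr, the last of the 8 highest genes, were still at least 2 times higher without those cells, with 8 and 56 UMIs and with 3 and 13, although 29 of the 56 Tmem123 UMIs were in a single IR cell. The values that follow therefore leave out the macrophages with epithelial RNA unless stated otherwise, which left 100 control and 60 IR cells. Among them 114 of 2135 genes (5.34%) were higher and 163 (7.63%) lower in the IR library, with a median log2 ratio of -0.04. In Malat1-rich macrophages alone 103 of 1872 genes (5.5%) were higher and 163 (8.71%) lower, and in Malat1-poor ones 12 of 289 (4.15%) and 18 (6.23%).

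Genes of the macrophage core list had a median ratio close to that of all counted genes. Of 21 counted genes of the core list none was at least 2 times higher and 1, Marco, was at least 2 times lower, with a median log2 ratio of -0.02, against 5.34% and 7.63% of all counted genes with a median of -0.04. Cd68, a lysosomal membrane protein, had 114 UMIs in control and 87 in IR macrophages, a ratio of 0.997 (0.746 to 1.33). Ms4a7 had 143 and 108, a ratio of 0.987. Aif1, which binds actin, had 145 and 128, a ratio of 1.15. Of the antibody receptors, Fcgr3 had 72 and 34 UMIs (0.617, 0.398 to 0.940), but 0.700 (0.479 to 1.01) without the mitochondrial limit. The intervals of Fcgr1 with 34 and 15 (0.577), Fcgr4 with 16 and 10 (0.817) and Fcgr2b with 18 and 26 (1.89) include 1. The receptors were not tested against each other. Irf8 had 96 and 46 UMIs, a ratio of 0.626 (0.431 to 0.899).

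**Figure D3:**
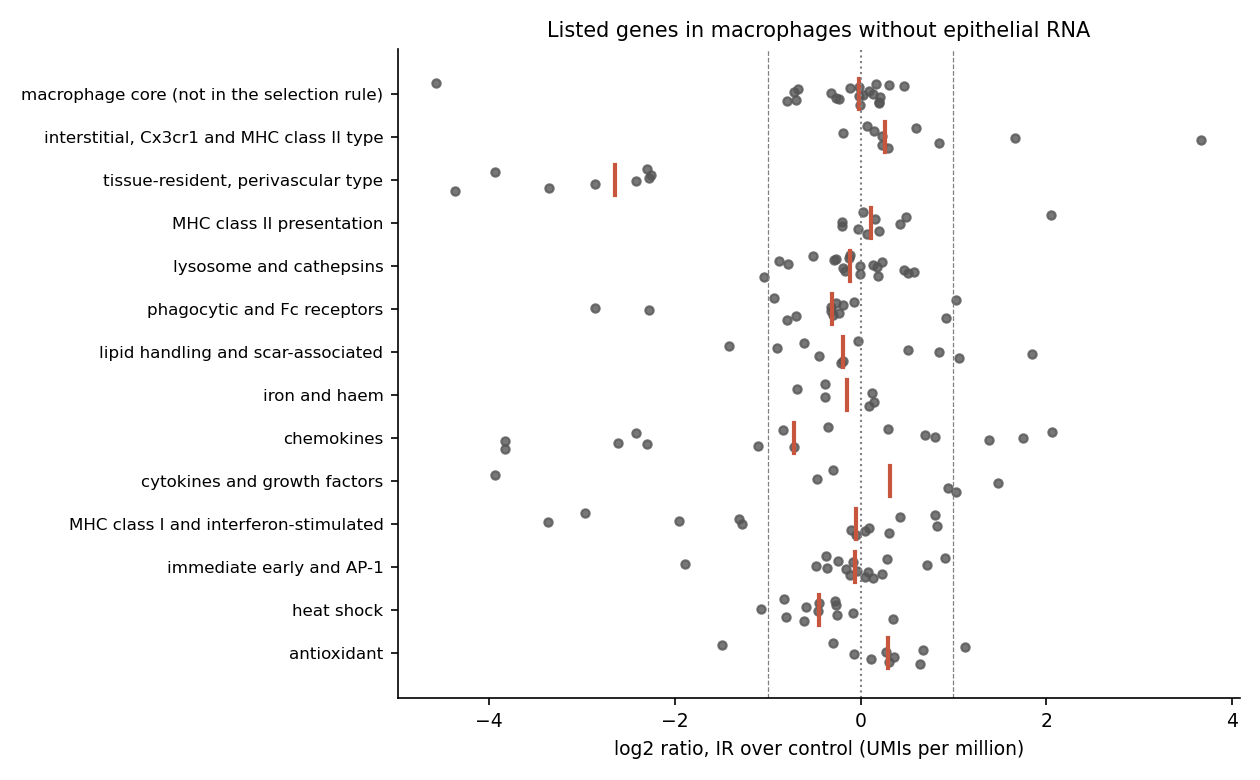
Log2 ratio of IR over control for every counted gene of 14 lists, in macrophages without epithelial RNA (100 control and 60 IR cells). Each point is a gene, red bars are medians and dashed lines mark 2 times lower and higher. The perivascular list lies below the lower line with a median of -2.64, while the core list is centred at -0.02.

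Genes listed for the perivascular kind of macrophage had little RNA in the IR cells that passed the mitochondrial limit. Lyve1 and Cd163, both on the list, were scarce in control macrophages too. Of the 14 genes on that list 8 had enough UMIs to be counted, and these 8 were at least 2 times lower, with a median log2 ratio of -2.64 (7.63% of all counted genes were lower, with a median of -0.04). They reached the limit of 20 UMIs mainly through the control cells, so this count is a description. With barcodes above the mitochondrial limit kept, an alternative added after the values were seen, 9 of 11 counted genes were lower and none was higher, with a median of -1.71 (of 2487 counted genes 6.92% were lower and 4.66% higher). Folr2, a folate receptor, had 67 UMIs in 8 control cells and 5 in 2 IR cells, a ratio of 0.0975 (0.0307 to 0.239). Mrc1 had 54 UMIs in 14 cells and 2 in 2 cells, a ratio of 0.0484 (0.00572 to 0.184). Timd4, a receptor for phosphatidylserine on dying cells, had 171 UMIs in 8 cells and 18 in 4 cells. Pf4, a chemokine, had 84 UMIs in 15 cells and 12 in 8 cells, and Ccl8, another chemokine, 109 in 10 and 17 in 5. Maf, a transcription factor, had 25 UMIs in 13 cells and 4 in 4, and the growth factor Igf1 20 in 6 and 1 in 1. Without the mitochondrial limit Igf1 had 22 and 11 UMIs, a ratio of 0.583 (0.255 to 1.26). Gas6, a ligand of receptors for dying cells, had 19 UMIs in 10 cells and 3 in 2. Ccl8, Maf and Gas6 were at 0.450, 0.467 and 0.371 without the mitochondrial limit. F13a1 and Cbr2 had 26 and 22 control UMIs and none in the IR library, and Cd163 had 3 and none over all macrophages. Stab1, a scavenger receptor, had 11 UMIs in 11 cells and 8 in 8 cells, too few to be counted. Selenop is listed under its older symbol Sepp1, which the list did not hold, and had 347 UMIs in 57 control and 125 in 35 IR cells, a ratio of 0.471 (0.381 to 0.579), but 0.910 (0.782 to 1.06) without the mitochondrial limit.

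Much of this difference came from a small group of control cells. Cd209b, a lectin receptor at chr8:3917655-3926844, and Marco, a scavenger receptor at chr1:120474538-120505024, had 436 and 4 UMIs and 201 and 5 UMIs over all macrophages. They were the lowest in IR macrophages of the counted genes that had UMIs in at least 5 cells of the higher library, with no cell holding most of them. These 2 ratios depend on the mitochondrial limit. A single IR barcode above it, with 10.6% mitochondrial RNA and 10588 UMIs, met the macrophage rule and held 229 UMIs of Cd209b, 136 of Marco, 40 of Timd4 and 9 of Folr2. With no limit and without epithelial RNA there were 114 control and 87 IR macrophages, and the ratio was 0.576 (0.490 to 0.675) for Cd209b, 0.751 (0.604 to 0.933) for Marco, 0.305 (0.224 to 0.409) for Timd4, 0.265 (0.146 to 0.452) for Folr2 and 0.0898 (0.0282 to 0.220) for Mrc1. The next lowest within the limit were Mcoln2 with 24 and 1 UMIs, Igf1 and Zbp1 with 23 and 1 each, Ccl2 with 40 and 2, Clec10a with 38 and 2 and Folr2 with 85 and 5. Mcoln2 had 19 and 6 UMIs with no limit and without epithelial RNA (0.369, 0.120 to 0.960), 5 of the 6 in a single barcode. Macrophages with at least 3 UMIs of Cd209b, Marco and Timd4 together, a group drawn after these values were seen, were 13 control and 3 IR cells, 0.385% and 0.0568% of the kept cells. Leaving out the 1 control cell of them that had epithelial RNA, the IR share was 0.160 times the control share (0.0289 to 0.592). The deepest 3 control cells of the group had 186, 153 and 38 UMIs of Cd209b, and together with 46, 78 and 46 of Marco and 97, 54 and 91 of Timd4 they held most of this RNA. The other 10 had between 0 and 13 Cd209b UMIs, and 7 of these were shallow cells of 507 to 914 UMIs. In the IR group 1 cell had 10 Timd4 UMIs and 4 of Folr2, another had 6 of Timd4, and the third had 4 of Cd209b and 5 of Marco.

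**Figure D4:**
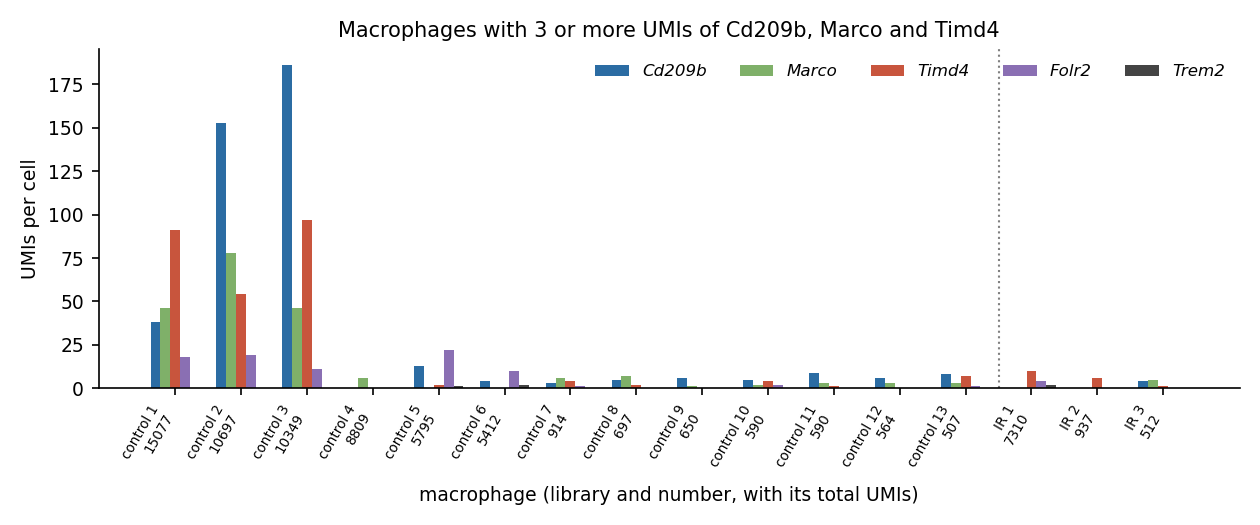
UMIs of Cd209b, Marco, Timd4, Folr2 and Trem2 in each of the 16 macrophages of the Cd209b group, 13 control and 3 IR cells, drawn as bars from 0. The highest bars belong to 3 control cells, with up to 186 Cd209b UMIs, and no cell has more than 2 Trem2 UMIs.

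These genes also had fewer UMIs over all cells of the IR gland that passed the filter. Over all kept cells of every class Cd209b had 577 control and 9 IR UMIs, Marco 240 and 22, and Timd4 370 and 72. Cells of any class with at least 3 UMIs of these genes numbered 23 and 7, and 9 and 2 more were among the barcodes that failed the filter, 1 of the 2 being the IR barcode with 229 Cd209b UMIs. Control macrophages held 75.6% of the control Cd209b UMIs. In T cells the gene was seen in 5 of 1147 control cells and 1 of 2754 IR cells.

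Within the control library the Cd209b group differed from the other macrophages in more than its defining genes. Comparing its 12 cells without epithelial RNA with the 88 others, Cd209f, a related lectin, had 68 UMIs and none, Pla2g2d, a phospholipase, 57 and none, and Fcna, ficolin A, 35 and none. Folr2 had 66 UMIs in 7 cells and 1 in 1 cell, Mrc1 42 in 6 and 12 in 8. Sepp1, selenoprotein P, had 213 UMIs in all 12 cells and 134 in 45 of 88, a level 5.15 times higher (4.13 to 6.44). Hmox1, which breaks down haem, was 3.6 times higher (2.52 to 5.14), Grn 4.76 times and Csf1r 2.81 times (1.91 to 4.13). Trem2 had 3 UMIs in the group and 92 in the others, a ratio of 0.106 (0.0214 to 0.318). Apoe had 336 and 3999 (0.272, 0.243 to 0.304) and Rgs1 3 and 209. C1qa, C1qb and C1qc, which are rule genes, were at 0.902 times (0.786 to 1.03), 0.641 times (0.531 to 0.770) and 0.753 times (0.605 to 0.929) the level of the others. Of the group's 41727 UMIs used for scaling, 8528 came from 1 cell with 6 Marco UMIs and none of Cd209b, Timd4, Folr2 or C1q. This cell lowers the C1q ratios above, and they were not computed without it. With both this group and the cells with epithelial RNA left out, the count of genes lower in the IR library was 103 of 1736 (5.93%) and that of higher genes 108 (6.22%). Of the perivascular list 2 genes were then counted, Pf4 with 35 and 11 UMIs (0.334, 0.153 to 0.672) and Ccl8 with 4 and 16 UMIs (4.25, 1.37 to 17.5). Among the Malat1-rich macrophages that remained, 100 of 1480 genes (6.76%) were higher and 105 (7.09%) lower, and of the perivascular list Pf4 alone had enough UMIs to be counted, with 31 UMIs in 7 control cells and 8 in 5 IR cells (0.233, 0.0927 to 0.519).

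The interstitial kind, with Cx3cr1, was seen in both libraries. Cx3cr1 had 47 UMIs in 21 control cells and 44 in 23 IR cells, a ratio of 1.22 (0.792 to 1.89). Trem2 had 95 UMIs in 43 and 64 in 26, a ratio of 0.880. Of 10 counted genes in the list 2 were at least 2 times higher and none lower, against 5.34% higher and 7.63% lower of all counted genes. Itgax, which encodes CD11c, had 7 UMIs in 7 control cells and 17 in 10 IR cells, a ratio of 3.17 with an interval of 1.25 to 9.05. Mmp12, an elastase of macrophages, had 4 and 39 UMIs in 3 cells each, and 34 of the 39 were in a single cell. Among Malat1-rich macrophages Cx3cr1 and Trem2 were found together in 17 of 34 control cells and 16 of 33 IR cells. Mrc1 was found in 9 and 2 of them. In T cells Cx3cr1 was seen in 0.174% and 0.218%.

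Presentation genes stood near the level of the control. Of 10 counted genes for MHC class II presentation 1 was higher and none lower, with a median log2 ratio of 0.11. H2-Ab1 had 1010 UMIs in 82 control and 888 in 54 IR cells, a ratio of 1.15, H2-Eb1 1255 and 940, a ratio of 0.979, and Cd74 4592 and 3927, a ratio of 1.12. The costimulatory receptor Cd40 had 11 UMIs in 8 cells and 35 in 8 cells, of which 27 were in a single IR cell. Of 15 counted chemokines and chemokine receptors 3 were higher and 6 lower, and of 6 counted cytokines and growth factors 2 were higher and 1 lower (all counted genes, 5.34% and 7.63%).

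Cxcl2, Cxcl1, Tnf and Il1a were at least 2 times higher in IR macrophages, while Il1b and Nfkbia stayed under that size. Cxcl2, a chemokine that draws neutrophils, had 178 UMIs in 18 of 100 control cells and 457 in 24 of 60 IR cells, a ratio of 3.36 (2.82 to 4.01). Its relative Cxcl1 had 27 UMIs in 7 cells and 54 in 9 cells (2.61, 1.62 to 4.32), with 21 of the 27 in a single cell. The cytokine Il1b had 202 UMIs in 24 cells and 296 in 21 cells (1.92, 1.60 to 2.30), Tnf had 15 in 10 and 32 in 13 (2.79), and Il1a 36 in 19 and 56 in 14 (2.03), 28 of the 56 in a single cell. Nfkbia, the inhibitor of NF-κB that NF-κB itself induces, had 156 and 224 UMIs (1.88, 1.52 to 2.32). Without the mitochondrial limit Il1a was at 1.78, and Cxcl2, Cxcl1 and Tnf were at 2.82, 2.82 and 2.27. Among Malat1-rich macrophages Cxcl2 was detected in 41.2% of control cells (24.6% to 59.3%) and 69.7% of IR cells (51.3% to 84.4%), intervals that overlap, against 0.959% and 0.654% of T cells. Il1b and Cxcl2 were found together in 7 of 34 and 16 of 33. The most Cxcl2 UMIs in a single cell were 35 for a control and 101 for an IR macrophage.

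**Figure D5:**
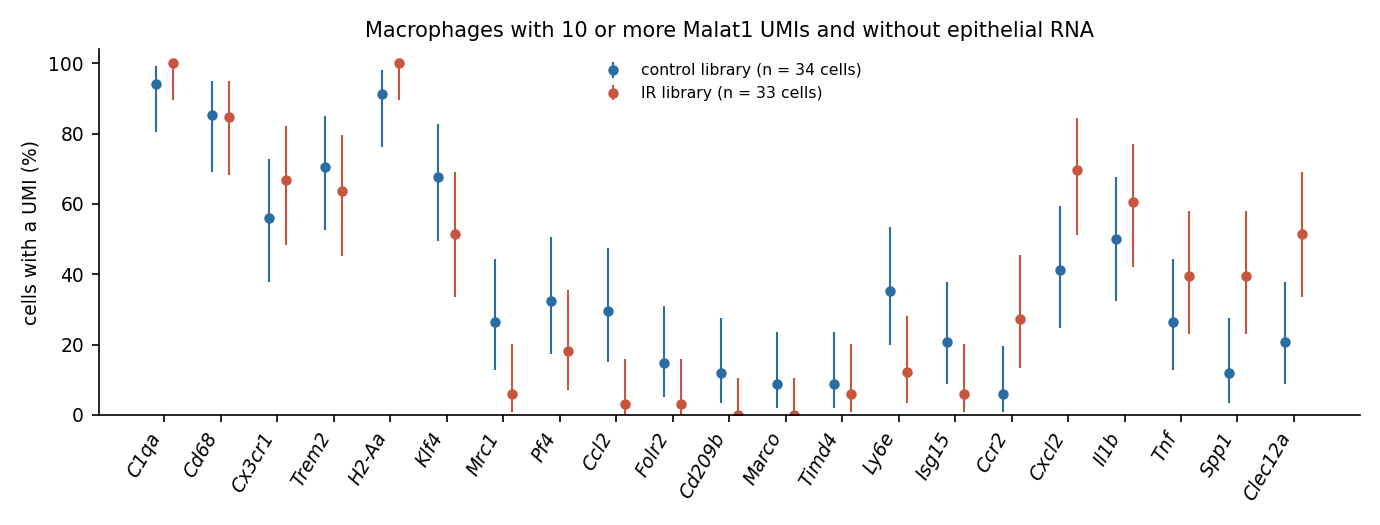
Percent of Malat1-rich macrophages without epithelial RNA that had at least 1 UMI of each of 21 genes, in the control (34 cells) and IR (33 cells) libraries, with Clopper-Pearson intervals. Cxcl2 stands at 41.2% and 69.7% and Mrc1 at 26.5% and 6.06%, while C1qa and the MHC class II gene H2-Aa are near the top in both.

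Other chemokines had fewer UMIs in IR macrophages. Ccl2, which draws monocytes, had 37 UMIs in 10 control cells and 2 in 2 IR cells (0.0706, 0.00825 to 0.274), and the related Ccl7 had 22 UMIs and none. Neither difference was seen without the mitochondrial limit, where Ccl2 had 39 and 34 UMIs (1.02, 0.623 to 1.65) and Ccl7 26 and 37 (1.66, 0.979 to 2.86), with 27 and all 37 of the IR UMIs in a single barcode. Ccl12 had 48 UMIs in 8 cells, 34 of them in a single cell, and 6 in 6 IR cells. Ccl4, a chemokine, had 326 and 116 UMIs (0.465, and 0.518 without the mitochondrial limit), but 190 of the control UMIs were in a single cell. Ccl3 had 101 and 47 UMIs, with 72 of the 101 in a single cell. Ccr2, the receptor for Ccl2 on monocytes, had 5 UMIs in 2 control cells and 16 in 10 IR cells (4.18, 1.46 to 14.6). Il1r2, a decoy receptor for IL-1, had 5 UMIs in 3 cells and 15 in 10 (3.92, 1.35 to 13.8), and Napsa, an aspartic protease, 8 in 2 and 26 in 9. Pdgfa, a growth factor for fibroblasts, had 5 UMIs in 4 cells and 17 in 13 cells (4.44, 1.57 to 15.4). Dynlrb1, Ogt, Ttc14 and Fip1l1 complete the 8 highest genes outside the epithelial RNA, with ratios from 3.92 to 4.44. None of these had more than 26 UMIs in a library.

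Several interferon-induced genes were lower in IR macrophages. Of 13 counted genes of MHC class I and the interferon response 5 were lower and none higher (all counted genes, 7.63% and 5.34%), although the median log2 ratio was -0.05. Ifi27l2a had 223 UMIs in 64 control cells and 44 in 27 IR cells (0.258, 0.182 to 0.358). Isg15 had 27 in 12 and 2 in 2, Ly6e 51 in 13 and 5 in 4 (0.128, and 0.292 without the mitochondrial limit), Irf7, the transcription factor that drives interferon genes, 38 in 25 and 12 in 10, and Ifitm3 168 in 41 and 52 in 24. Of the MHC class I genes, B2m had 439 and 325 UMIs (0.968) and H2-D1 487 and 384 (1.03), with intervals that include 1, and H2-K1 had 570 and 538 (1.23, 1.09 to 1.39). Other immune cells differed in part the same way. Ifi27l2a stood at a CPM of 779 in control and 343 in IR T cells, whereas Ly6e stood at 124 and 112 and Isg15 at 55.0 and 79.2.

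Heat shock genes had a median below that of all counted genes. Of 12 counted genes 1 was at least 2 times lower and none higher, a share near the 7.63% of all counted genes, with a median log2 ratio of -0.45. Hsp90aa1, a chaperone, had 725 UMIs in control and 317 in IR macrophages (0.571, 0.499 to 0.653). Hspa1a had 789 and 395 (0.654), and Hspe1 219 and 80 (0.477), while Hspa1b had 263 and 256 (1.27). For Hsp90aa1 the lower level was not limited to macrophages, since it stood at a CPM of 1912 in control and 737 in IR T cells, and at 1697 and 732 in B cells. Of 16 counted immediate early genes only Klf4 differed 2 times or more. Klf4, a transcription factor of monocytes and macrophages, had 208 UMIs in 24 control cells and 43 in 19 IR cells (0.270, 0.190 to 0.377), and no cell held more than 27 of them. Without the mitochondrial limit the ratio was 0.463 (0.357 to 0.595). In T cells its CPM was 86.6 and 88.8, and in dendritic cells 260 and 388. Fos, with 309 and 259 UMIs (1.10), Junb, with 338 and 303 (1.17), and Klf2, with 207 and 260 (1.64, 1.36 to 1.98), differed by less than 2 times. Of the 16 genes 3 had intervals above 1 and 1 below.

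Lysosomal, lipid and iron genes had median log2 ratios of -0.12, -0.18 and -0.14. Of 11 counted lipid genes 2 were higher and 1 lower (all counted genes, 5.34% and 7.63%), and of 6 counted iron genes none differed by 2 times. Of 19 counted lysosome genes 1 was lower, against 7.63% of all counted genes. This was Ctsb, the protease cathepsin B, with 487 UMIs in 77 control cells and 181 in 40 IR cells (0.486, 0.407 to 0.577), but 0.549 without the mitochondrial limit, and 0.707 in Malat1-rich cells without the Cd209b group. Ctsz and Ctsc, of the same family, had 222 and 243 UMIs (1.43) and 131 and 149 (1.49). Apoe had 4335 and 2871 UMIs (0.866, 0.825 to 0.908). Spp1, osteopontin, had 20 UMIs in 9 control cells and 32 in 14 IR cells (2.09, 1.16 to 3.86), and Fabp5, a fatty acid carrier, 8 in 4 and 22 in 6. Gpnmb, often seen with Spp1 in scarred tissue, had no UMI. The ferritin genes Fth1 (1.07) and Ftl1 (1.10) differed by less than 2 times, as did Hmox1 (0.766), whose interval includes 1. Of the iron list 2 genes had intervals above 1 and none below. Abca1, which exports cholesterol, had 35 UMIs in 14 cells and 10 in 10 cells (0.373), but 0.645 (0.360 to 1.13) without the mitochondrial limit.

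Of 9 counted genes on a list of ligands and receptors of cell signaling, only Cd40 differed by 2 times, being higher (of all counted genes 5.34% were higher and 7.63% lower). Tlr2 had 50 UMIs in 24 control cells and 38 in 18 IR cells (0.993) and Tnfrsf1a, the receptor for TNF, 13 in 9 and 12 in 12 (1.21). Ltbr had 7 UMIs in 7 cells and 2 in 2 cells, below the limit for counting. Csf1r, a gene of the rule and not on that list, had 114 UMIs in 38 cells and 50 in 23 cells, a ratio of 0.573 (0.403 to 0.806). Of the 114 control UMIs, 53 were in the 12 cells of the Cd209b group. Of the genes induced by p53, Cdkn1a had 107 and 78 UMIs (0.953), Bax 28 and 40 (1.87, 1.12 to 3.14) and Mdm2 12 and 19 (2.07, 0.954 to 4.67, and 1.60 without the mitochondrial limit). The cycling list of 14 genes had 140 and 120 UMIs over all macrophages, of which Mki67 had 4 and 2, and none of its 3 counted genes differed by 2 times.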

How the data were processed

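Cells from dissociated parotid glands were captured with the 10x Chromium kit, and the authors aligned reads to mm10 with Cell Ranger 3.0.1 and deposited the raw UMI counts of each barcode. The submitters' notes also name Seurat 3. The control library held 5550 barcodes with 22707876 UMIs and the IR library 7793 with 23890757, none under 500 UMIs. The minimum of 200 genes left out 912 control and 649 IR barcodes and the mitochondrial limit another 1260 and 1858.

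Counts were summed per class and library and scaled to 1000000 UMIs outside 50 abundant secretory genes and the mitochondrial genes, a departure from plain CPM, which was an alternative. The other classes were set by T-cell, B-cell, dendritic and keratin genes. No doublet caller was applied. As an alternative, the 6% of cells with the highest Scrublet scores were left out. This removed 10 control and 3 IR macrophages, of which 1 control and 0 IR cells belonged to the set with epithelial RNA, so most of that set stayed in. Shares have Clopper-Pearson, sums exact Poisson and ratios exact conditional binomial intervals (scipy 1.17.1, numpy 2.4.6, pandas 2.3.3, scanpy 1.11.5). The ratio of IR over control and its interval were tried on simulated gene sums with Poisson error only. Differences between cells were not simulated, and the filter, classes and shares were not tried in this way.

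Named genes were the 5 rule genes, the 15 furthest above other cells, the 8 highest and 8 lowest ratios of IR over control (seen in at least 5 cells, none holding most of the UMIs), and from each list the most abundant, the defining and the undetected members. The same ratio rule was applied again without the epithelial RNA. A few single genes were named after their values were seen, among them Klf4, Cd209f, Fcna, Pla2g2d, Sepp1 and Rgs1. A few list members are not reported here. Members and lists were chosen with earlier results of these data known. Further alternatives were other limits on genes, mitochondrial RNA, rule UMIs, UMIs per gene and size, TMM factors from edgeR, no mitochondrial limit, and leaving out sets of cells.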

Additional observations from a re-analysis of the deposited data

How the results depend on the processing

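With 1 library per condition no result has a replicate check, and few deep cells decide many sums. The lower share of macrophages in the IR library kept its direction under the alternatives tried. It was 0.359 among immune cells alone, 0.595 with at least 500 genes per cell, 0.581 for Malat1-rich macrophages among Malat1-rich cells and 0.543 without a mitochondrial limit. As shares of all kept cells, Malat1-rich macrophages had a ratio of 0.620 (0.372 to 1.03) and Malat1-poor ones 0.261. Without the mitochondrial limit the ratios over all macrophages moved for Cd209b from 0.0104 to 0.463, Marco from 0.0281 to 0.539, Igf1 from 0.0491 to 0.486, Ccl2 from 0.0564 to 0.820 (0.506 to 1.32) and Folr2 from 0.0664 to 0.185, while at a limit of 10% these were 0.00852, 0.0205, 0.0869, 0.159 and 0.0935. With each cell thinned to 500 UMIs Ccl2 was at 0.597 (0.0568 to 3.65). The count of higher and of lower genes in IR macrophages (213 and 222) was 509 and 523 at a size of 1.5 times and 73 and 66 at 3 times, where the genes high in macrophages fell from 427 to 271. It was 40 and 66 with at least 50 UMIs per gene and 550 and 533 with at least 10, limits that also change how many genes are counted. With each cell thinned to 500 UMIs it was 20 and 37 of 410 genes. Leaving out sets of cells was chosen after seeing the data. Without epithelial RNA 114 genes were higher, among Malat1-rich cells 103, and without epithelial RNA and the Cd209b group 108 were higher and 103 lower. Of the ratios of the 16 genes highest or lowest in IR macrophages under these alternatives, where the control had a UMI, 185 stayed within their intervals, 34 moved and 3 reversed. These were Ano1 at 0 after thinning, Krt14 at 0 in Malat1-rich cells, and Folr2 at 1.06, on 1 UMI in each library, without epithelial RNA and the Cd209b group. Outside this count, Ccl2 was at 1.02 without the mitochondrial limit and epithelial RNA, and in smaller sets of cells Igf1, Ccl2, Tmem123 and Cxadr turned on 1 UMI in 1 library and 0 in the other. The cause was not tested. No paired analysis was possible because each condition has 1 library.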

Other observations

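A few IR macrophages carried RNA of dendritic cells. At least 3 UMIs of Flt3, Xcr1, Clec9a, Cd209a, Fscn1 and Ccl22 together were found in 3 IR macrophages, whose median was 8 UMIs of the rule genes, and in no control macrophage. With Siglech added to these genes the numbers were 3 IR and 5 control macrophages. The 3 IR cells held 22181 of the 135333 UMIs used for scaling in IR macrophages without epithelial RNA. They stayed in the ratios of IR over control, and no comparison without them was made. Fscn1, an actin bundling protein of mature dendritic cells, had 67 UMIs in 5 IR cells, 58 of them in a single cell, and none in the control. Ccl22 had 58 UMIs in 2 IR cells, 57 of them in a single cell, and 1 in the control, and Ccr7, the receptor that guides dendritic cells to lymph nodes, had 77 UMIs in 4 IR cells and 24 in 5 control cells. Il12b, a subunit of the cytokine IL-12, had 14 UMIs in 5 IR cells and none in the control.

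Some genes outside the fixed lists differed among Malat1-rich macrophages once the Cd209b group was left out. Lsp1, a leukocyte actin regulator, had 19 UMIs in 10 control cells and 94 in 16 IR cells, a ratio of 4.48 (2.71 to 7.76), with 36 of the 94 in a single cell. Epsti1 had 18 UMIs in 14 cells and 69 in 12 (3.47, 2.04 to 6.19), with 31 of the 69 in a single cell. Ms4a6c had 30 UMIs in 13 cells and 7 in 4 (0.211, 0.0783 to 0.490), and Mgat4a 27 in 16 and 6 in 6. In the same cells 3 of 8 counted genes of the dendritic cell list were higher and none lower (all counted genes, 6.76% and 7.09%). The 3 IR macrophages with dendritic RNA were among these cells. Rgs1, a brake on chemokine receptor signaling, had 212 UMIs in 29 control and 335 in 30 IR macrophages without epithelial RNA (2.07, 1.73 to 2.46), and in T cells its CPM was 223 and 395. Of 10 counted genes of the antioxidant list, without epithelial RNA, 1 was higher and 1 lower, with a median log2 ratio of 0.29 (all counted genes, 5.34% and 7.63%). On that list the metallothionein Mt1 had 199 UMIs in 43 cells and 54 in 30 (0.355). Cat, which breaks down hydrogen peroxide, had 4 in 4 and 14 in 11, too few to be counted.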
